A study of Arabidopsis thaliana with 8 samples.

Results

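The late steps of anthocyanin synthesis and the MYB factor PAP1 were followed on 7 of the 22810 probe sets of the Affymetrix ATH1 array, a 1-colour platform that reads a transcript with a set of short probes. The 7 were chosen by gene, with earlier results of these data known: DFR, LDOX, UF3GT, AT4G14090, 5MAT, TT19 and PAP1 (MYB75). RNA came from whole Arabidopsis thaliana plants in the Landsberg erecta (Ler) background at growth stage 1.04, with 10 plants pooled and 4 arrays for each of 2 lines. The mutant line, 15B, was obtained with the mutagen EMS from the stock that served as its control. That stock, called the silenced parent here, is homozygous for 1 insert that adds a copy of CHS, the gene of chalcone synthase, and thereby silences the resident copy TT4, so 15B descends from plants carrying it. The series title names hog1 and the relief of CHS silencing, and the labels do not say which gene is altered in 15B or whether further EMS changes were removed. Seeds were kept at 4 degrees C for 3 days, and all plants then grew untreated at 22 degrees C with 18 h of light on a medium holding 1% sucrose.

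Anthocyanins are the red to purple flavonoid pigments of plants. Chalcone synthase makes the first flavonoid skeleton, the early enzymes turn it into dihydroflavonols, and the late enzymes reduce, oxidise and decorate these before the pigment is moved into the vacuole. In Arabidopsis the late genes are activated by a complex of an R2R3-MYB factor such as PAP1, a bHLH factor and the WD40 protein TTG1, and sucrose in the medium is known to raise PAP1 transcripts in seedlings.

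In 15B, 5 of the 7 genes had higher signal on each of its 4 arrays than on any array of the silenced parent. These were DFR, LDOX, UF3GT, AT4G14090 and TT19, with mean signals 2.36 to 6.22 times those of the parent. The signals of 5MAT and PAP1 overlapped between the lines. Of the 6 genes bright enough to be tested, 5 rose and 0 fell (limma across 13822 probe sets, Benjamini-Hochberg adjusted p under 0.05, used for every "rose" and "fell" below). Across all tested probe sets 3.13% were called higher in 15B and 3.57% lower, 6.7% in all, and on 5.58% every 15B array lay above every parent array. The median log2 fold change of the 6 tested genes was 1.53, and that of all tested probe sets was -0.03. Because the genes were chosen with earlier results of these data known, these shares and medians are a description and no test of the set. Signal was deposited on a linear scale, already brought to the same trimmed mean on each array, and fold changes are 15B minus silenced parent on the log2(signal + 10) scale, which understates changes of dim genes. In whole plants, more cells making a transcript and more of it per cell cannot be told apart.

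**Figure D1:**
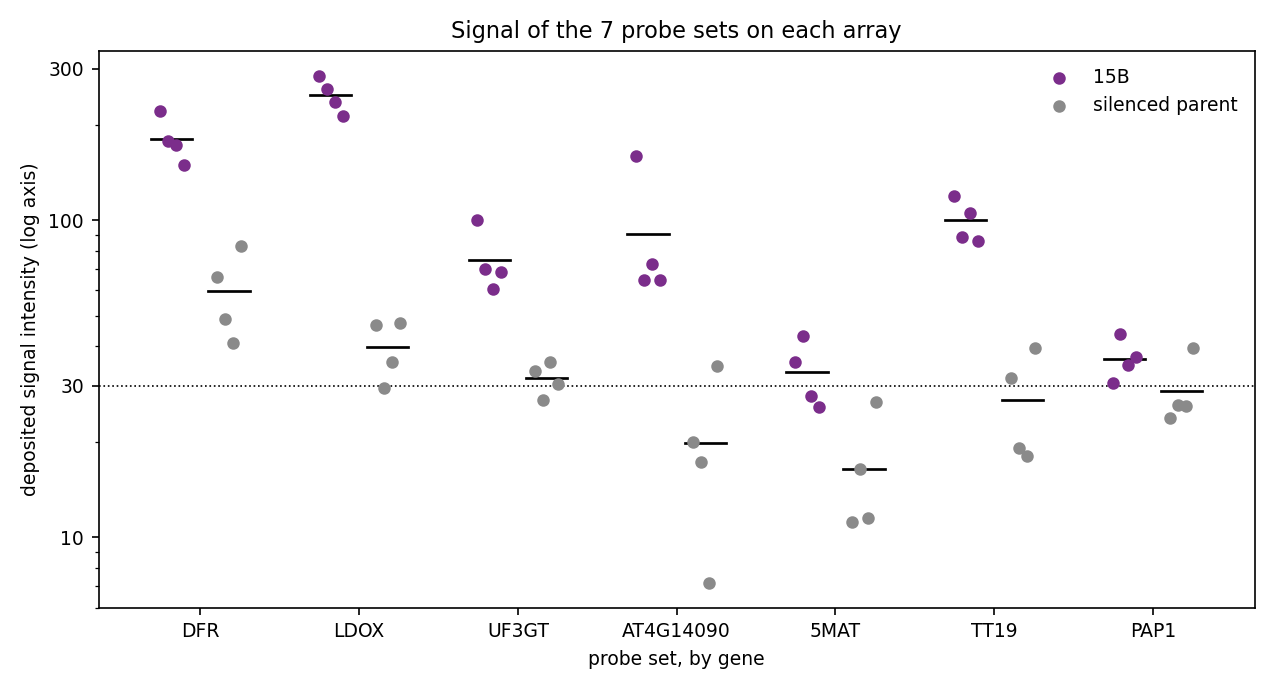
Signal of each gene on each array (log axis), with 15B at left and the silenced parent at right of each pair of columns; points are single arrays, bars are means, and the dotted line marks 30 signal units, the mean a probe set needed to be tested. For DFR, LDOX, UF3GT, AT4G14090 and TT19 the lowest 15B array lies above the highest parent array, while 5MAT and PAP1 overlap.

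DFR (AT5G42800, 249215_at), dihydroflavonol 4-reductase, catalyses the first step that is specific to anthocyanins and proanthocyanidins. Its signal was 220.4, 177.3, 172.7 and 148.8 on 15B replicates 1 to 4, against 66.3, 48.7, 41.0 and 82.9 on parent replicates 1 to 4. The lowest 15B array stood at 1.79 times the highest parent array. The fitted log2 fold change was 1.47 (SE 0.17, 95% interval 1.09 to 1.85, limma adjusted p = 1.82e-04).

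LDOX (AT4G22880, 254283_s_at), leucoanthocyanidin dioxygenase or anthocyanidin synthase, makes the coloured anthocyanidin from the product of DFR. It gave 284.4, 259.3, 235.2 and 212.6 on the 15B arrays, against 46.8, 29.6, 35.6 and 47.3 on the parent arrays. This was the widest gap among the 7 genes, with the lowest 15B array at 4.49 times the highest parent array. The log2 fold change was 2.38 (SE 0.13, 95% interval 2.09 to 2.67, limma adjusted p = 1.10e-07), place 65 among the 13822 tested probe sets ordered by rise. The suffix _s_at marks probes that several sequences share, so this signal cannot be assigned to LDOX alone.

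UF3GT (AT5G54060, 248185_at), also called UGT79B1, adds a sugar to the 3-O-glucoside of anthocyanins. Its 15B arrays read 100.3, 70.0, 60.6 and 68.6, against 33.4, 27.1, 35.8 and 30.4 for the parent. The parent arrays lay close together (coefficient of variation 11.9%), and replicate 1 of 15B was the high one of its line (23.3%). The log2 fold change of 1.01 (SE 0.14, 95% interval 0.70 to 1.32, limma adjusted p = 8.40e-04) was the smallest of the 5 rises.

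AT4G14090 (245624_at) encodes the anthocyanin 5-O-glucosyltransferase. It read 159.0, 64.8, 72.9 and 64.7 on the 15B arrays, against 20.0, 17.3, 7.2 and 34.6 on the parent arrays. The spread was the widest of the 7, with a coefficient of variation of 50.8% in 15B, where replicate 1 stood apart, and 57.2% in the parent. The log2 fold change was 1.74 (SE 0.30, 95% interval 1.1 to 2.39, limma adjusted p = 0.00341), and 1.46 without replicate 1 of 15B (limma adjusted p = 0.00519).

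5MAT (AT3G29590, 256924_at) encodes the malonyltransferase that acts on the 5-O-glucose which the AT4G14090 enzyme attaches. Its signal was 35.6, 43.2, 27.8 and 25.8 in 15B, against 11.2, 16.4, 11.5 and 26.6 in the parent. A single parent array, replicate 4, lay within the range of 15B, and the other 3 lay below every 15B array. With a mean of 24.8 over the 8 arrays it was too dim to be tested, and in a fit with no filter its log2 fold change was 0.72 (SE 0.21, 95% interval 0.27 to 1.18), which did not pass (limma adjusted p = 0.0912). The exact permutation test over arrays gave p = 0.0571, two-sided, where 4 against 4 arrays can reach 0.0286. In the fit with no filter and without parent replicate 4 it was 0.89 and passed (limma adjusted p = 0.0306), with adjusted p from 0.115 to 0.227 when any other array was left out. With no filter, 2.04% of all 22746 probe sets were called higher in 15B.

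TT19 (AT5G17220, 250083_at), the phi-class glutathione transferase GSTF12, is needed for anthocyanins to reach the vacuole. It read 119.2, 88.7, 105.2 and 85.9 on the 15B arrays, against 31.8, 19.1, 18.1 and 39.6 on the parent arrays. The lowest 15B array was at 2.17 times the highest parent array. The log2 fold change was 1.59 (SE 0.18, 95% interval 1.2 to 1.99, limma adjusted p = 1.34e-04).

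PAP1 (AT1G56650, 245628_at), the MYB factor, read 30.7, 43.8, 34.9 and 36.9 in 15B, against 23.8, 26.1, 26.0 and 39.6 in the parent. Parent replicate 4 was higher than 3 of the 4 arrays of 15B, and the other 3 parent arrays were lower than all of them. The difference did not pass, at 0.27 with a 95% interval from -0.06 to 0.60 (SE 0.15, limma adjusted p = 0.332, exact permutation p = 0.114, n = 4 arrays a line). Without parent replicate 4 the lines no longer overlapped and the value was 0.39, still without passing (limma adjusted p = 0.119). A rise of PAP1 up to the upper end of the interval is thus within what these arrays allow.

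**Figure D2:**
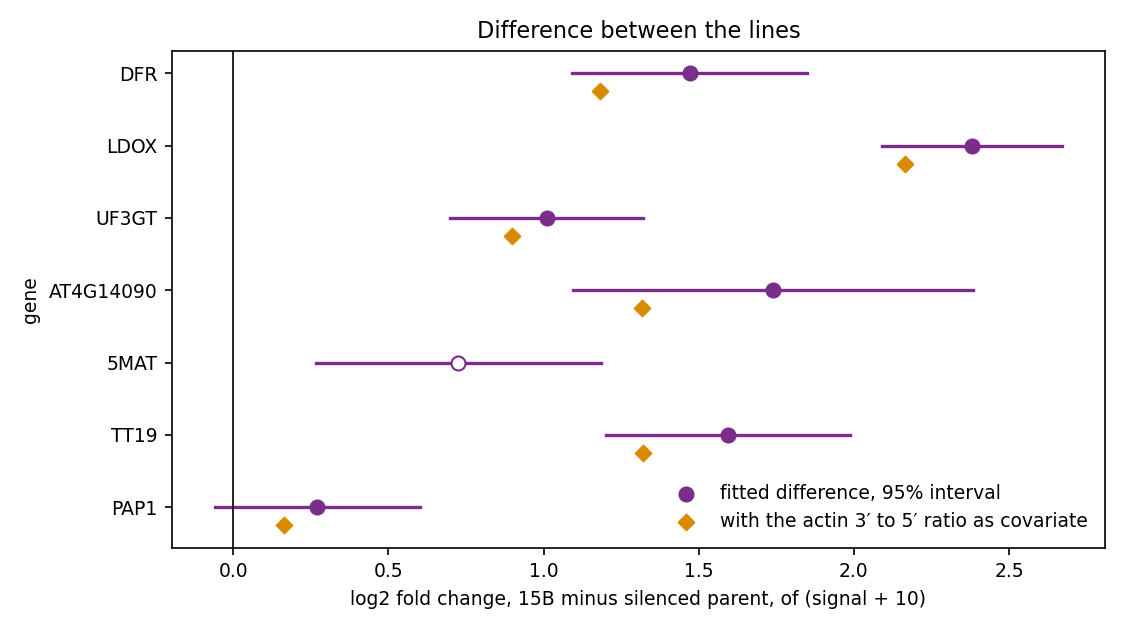
Log2 fold change of each gene, 15B minus silenced parent, on the log2(signal + 10) scale, with the 95% interval (circles and lines; the open circle for 5MAT is from the fit with no filter) and the value with the actin 3′ to 5′ ratio as a covariate (diamonds; none for 5MAT). LDOX lies at 2.38 and PAP1 at 0.27 with an interval that includes 0.

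To set the enzymes and TT19 beside PAP1, the log2 signal of each of the 6 genes minus that of PAP1 was taken on each array. The comparison was added after seeing the data. The log2 difference from PAP1 was larger in 15B than in the parent for all 6, by 2.11 for LDOX, 1.47 for AT4G14090, 1.32 for TT19, 1.2 for DFR, 0.74 for UF3GT and 0.45 for 5MAT. Each value is the gene's own log2 fold change less the 0.27 of PAP1. For each of the 6 the arrays of the lines did not overlap (exact permutation p = 0.0286, the smallest that 4 against 4 arrays allow, also 0.0286 adjusted over the 6 comparisons). All but 5MAT had also separated before PAP1 was subtracted, so for the others this outcome was nearly fixed in advance. It is therefore no separate evidence that their response differed from that of PAP1. For 5MAT the gap was narrow, with the lowest 15B array at -0.39 and the highest parent array at -0.44. On parent replicate 4 both 5MAT and PAP1 were high, at 0.51 and 0.37 above the line mean, and the subtraction removes that shared part. The share of all tested probe sets that separate after this subtraction was not taken. The 6 share the PAP1 values, and the added 10 makes log2 differences of dim genes smaller. With 1 added in place of 10 the log2 fold change was 2.21 for AT4G14090, 1.90 for TT19 and 0.35 for PAP1.

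Filtering on the mean of all 8 arrays let some genes in through 15B. The parent mean lay under 30 signal units for 4 of the 7 genes, at 27.2 for TT19, 28.9 for PAP1, 19.8 for AT4G14090 and 16.4 for 5MAT, and the first 3 of these were tested. With no filter the same 5 genes were called (limma adjusted p at most 0.0134), and with the filter at 60 signal units 3 were tested and called, since UF3GT and AT4G14090 averaged 53.3 and 55.1.

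Arrays of one line differed from each other in a pattern that several of these genes shared. Replicate 1 was the highest 15B array for 5 of the 7 genes and replicate 4 the lowest for 5. In the parent, replicate 4 was the highest for 6 of the 7, all but UF3GT (ranks over all tested probe sets were not counted). Deviations from the line mean were therefore compared between genes, which keeps the difference between the lines out of the correlation. For each of the 21 pairs, r was taken over 8 arrays and tested by exact permutation of arrays within each line (576 orders, two-sided, smallest possible p 0.00174).

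**Figure D3:**
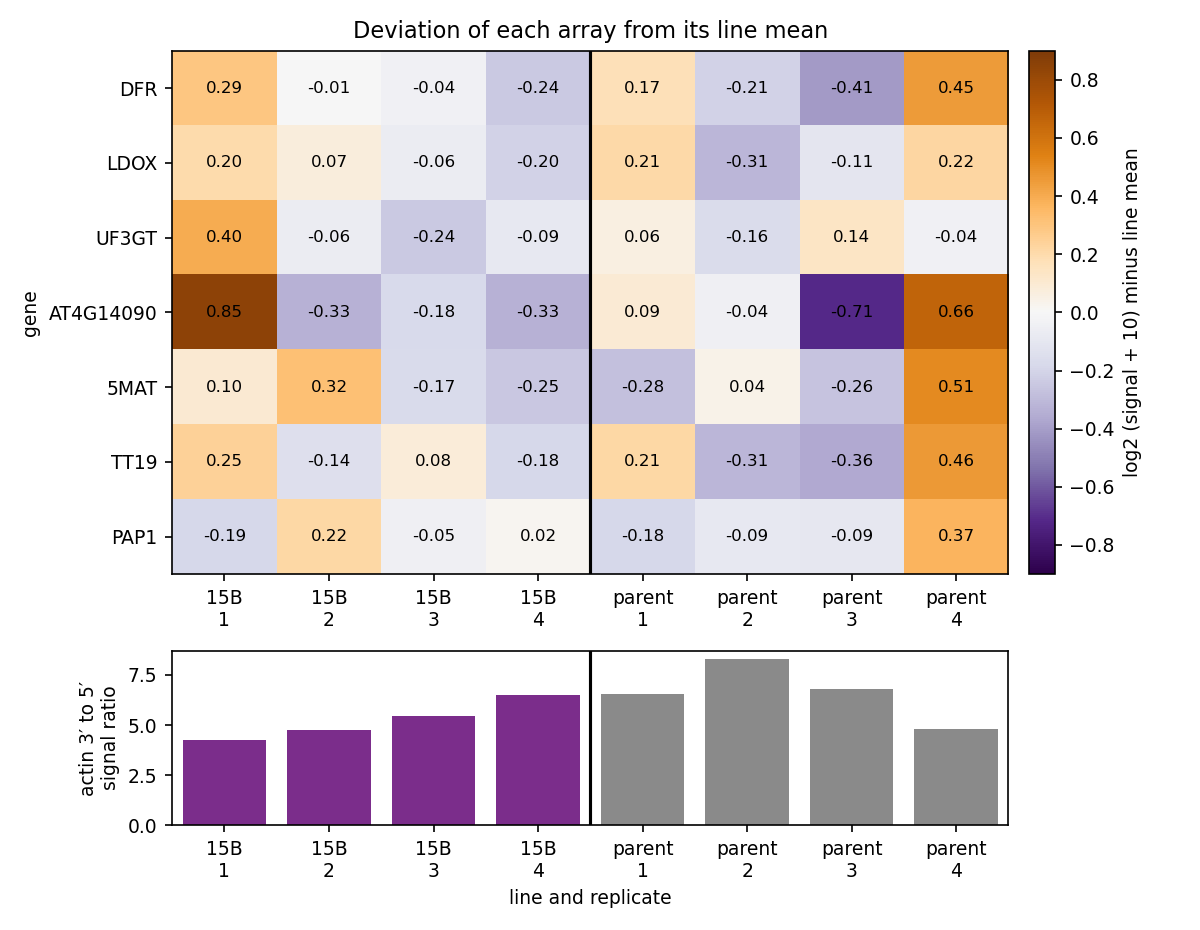
Upper panel, log2(signal + 10) of each gene on each array minus the mean of its line; lower panel, the actin 3′ to 5′ signal ratio of the same arrays. 15B replicate 1 and parent replicate 4, which have the lowest ratios of their lines (4.26 and 4.79), carry most of the high values.

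DFR, TT19 and AT4G14090 moved together. Deviations of DFR and TT19 correlated at r = 0.955 (exact permutation p = 0.00347, 0.0365 adjusted over 21 pairs; rho = 0.952, p = 0.00694, adjusted 0.0486), and at 0.898 without the 2 arrays farthest from the median of DFR. DFR and AT4G14090 gave r = 0.894 (exact permutation p = 0.00521, adjusted 0.0365; rho = 0.881, p = 0.00694, adjusted 0.0486), and 0.788 without 2 arrays. AT4G14090 and TT19 gave r = 0.832 (exact permutation p = 0.00174, adjusted 0.0365; rho = 0.833, p = 0.00694, adjusted 0.0486), and 0.698 without 2 arrays. These 3 pairs passed after adjustment, and the share of all pairs of tested probe sets reaching such r was not taken.

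LDOX was close to the same pattern without passing. Its r was 0.854 with DFR (exact permutation p = 0.0330, adjusted 0.173; rho = 0.881, p = 0.0312, adjusted 0.164) and 0.841 with TT19 (exact permutation p = 0.0590, adjusted 0.225; rho = 0.881, p = 0.0469, adjusted 0.197). Without 2 arrays these were 0.940 and 0.809. UF3GT had r from 0.239 to 0.518 with the other 4 genes that rose, none past an unadjusted 0.05. Without the 2 farthest arrays of each pair its r was 0.811 with DFR, 0.533 with LDOX, 0.286 with TT19 and 0.025 with AT4G14090. Among the 5 genes that rose the median r of the 10 pairs was 0.737. Over all 21 pairs it was 0.440, and 20 were positive. Without the 2 farthest arrays of each pair the median over the 21 fell to 0.150, with 14 positive and the lowest r at -0.911, for PAP1 with DFR. The median over all pairs of tested probe sets was 0.003, and 17.2% of those pairs reached 0.440, so a correlation of that size between single pairs was common on these 8 arrays.

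**Figure D4:**
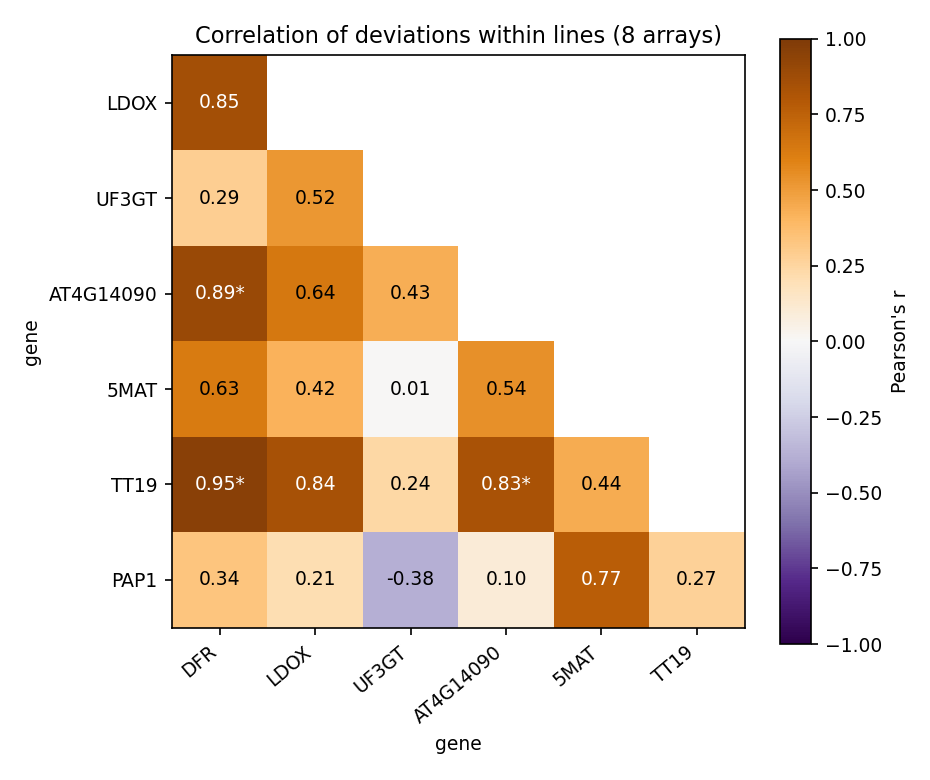
Pearson's r between the genes' deviations from the line mean over 8 arrays, 1 cell a pair; asterisks mark the 3 pairs past 0.05 after adjustment over 21 pairs. DFR, LDOX, AT4G14090 and TT19 form a block between 0.642 and 0.955, and PAP1 has r between -0.376 and 0.773.

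PAP1 did not follow the late genes from array to array in a way that survived the choice of arrays. Its r was 0.336 with DFR, 0.208 with LDOX, 0.267 with TT19, 0.099 with AT4G14090, -0.376 with UF3GT and 0.773 with 5MAT (exact permutation p from 0.0642 to 0.832, adjusted from 0.225 to 0.873; rho from -0.524 to 0.548, adjusted p from 0.486 to 0.964). The 2 arrays farthest from the PAP1 median were 15B replicate 2 and parent replicate 4, and without them all 6 values were negative, at -0.911 with DFR, -0.884 with LDOX, -0.846 with TT19, -0.879 with AT4G14090, -0.752 with UF3GT and -0.453 with 5MAT. The sign of the relation to the 5 genes other than UF3GT therefore rests on those arrays, and 6 arrays are few for the values that remain.

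RNA integrity measures were set against these genes within the lines. On Affymetrix arrays the ratio of 3′ to 5′ signal of a long transcript rises when RNA is degraded or copied incompletely. For actin it was 4.26, 4.77, 5.44 and 6.47 on 15B replicates 1 to 4, against 6.56, 8.28, 6.81 and 4.79 on parent replicates 1 to 4. The mean was 5.24 ± 0.954 in 15B and 6.61 ± 1.43 in the parent (SD, n = 4 each, exact permutation p = 0.143, adjusted over 6 array measures 0.286). The correlation with the ratio was negative for all 7 genes over 8 deviations, with r from -0.884 for LDOX to -0.461 for PAP1 (rho = -0.095 for PAP1). Of the 7 relations, only that of LDOX passed (exact permutation p = 0.00521, adjusted 0.0365; rho = -0.905, p = 0.00347, adjusted 0.0243; r = -0.850 without the 2 farthest arrays). DFR had r = -0.828 (exact permutation p = 0.0243, adjusted 0.0851; rho = -0.810, adjusted 0.130) and TT19 -0.780 (exact permutation p = 0.0399, adjusted 0.0932; rho = -0.762, adjusted 0.130), and without those 2 arrays, 15B replicate 1 and parent replicate 4, they were at -0.479 and -0.395. Without the same 2 arrays AT4G14090 turned to 0.118, against -0.672 over all 8, and UF3GT, 5MAT and PAP1 were at -0.515, -0.284 and -0.330. An r as low as that of LDOX was found for 0.868% of tested probe sets, and one as low as that of PAP1 for 21.4%. The deviations of all 7 genes were likewise negative with the GAPDH ratio (-0.955 to -0.216) and the ubiquitin ratio (-0.876 to -0.279). The mean standardised deviation of the 7 genes had r = -0.926 with actin, -0.945 with GAPDH and -0.865 with ubiquitin. Each passed (exact permutation p adjusted over 6 array measures 0.0156, 0.0156 and 0.0208), but rho did not (adjusted 0.0625 to 0.0667). Without the 2 farthest arrays of each ratio these r were -0.737, -0.906 and -0.595.

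With the actin ratio as a covariate the same 5 genes were called. Their log2 fold changes were 2.16 for LDOX, 1.32 for TT19, 1.32 for AT4G14090, 1.18 for DFR and 0.90 for UF3GT (limma adjusted p at most 0.0258), each smaller than without it, while the calls over all probe sets numbered 513 instead of 926. PAP1 was then at 0.16 (limma adjusted p = 0.693). Scanner background was 197.8 on parent replicate 4, against 77.6 to 94.3 on the other parent arrays and 93.7 to 101.3 on the 15B arrays. On that array the median deviation of tested probe sets averaging 30 to 100 signal units was 0.043, and those of the 7 genes ran from -0.04 for UF3GT to 0.66 for AT4G14090. DFR and LDOX average above that band and 5MAT below it, and a median does not give the spread of single probe sets. Leaving it out kept all 5 calls, with values from 1.00 for UF3GT to 2.45 for LDOX. What part background or RNA integrity had in the shared pattern was not tested.

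Other genes of the pathway were taken from lists of 59 loci of flavonoid synthesis and its control, of which 8 beside these had a probe set naming 1 gene and 5 were tested. Of the 5, 0 were called by limma (2 at an unadjusted p under 0.05), and the median log2 fold change was 0.04. CHIL, a chalcone isomerase-like protein of the early steps, read 114.8, 104.7, 84.9 and 105.2 in 15B, against 105.7, 53.1, 71.9 and 62.6 in the parent. Parent replicate 1 lay within the range of 15B. The log2 fold change was 0.46 (SE 0.16, 95% interval 0.11 to 0.82, limma adjusted p = 0.118), and 0.63 without that array (limma adjusted p = 0.0114).

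Glycosyltransferases that serve flavonols were nearer to 0. UGT78D2, which puts glucose on the 3 position of flavonols and of anthocyanidins, averaged 139 ± 26.9 in 15B and 134 ± 16.6 in the parent (SD, n = 4 each), a log2 fold change of 0.04 with a 95% interval from -0.24 to 0.32. UGT78D1, a flavonol 3-O-rhamnosyltransferase, averaged 70.2 ± 28.2 in 15B and 66.3 ± 15.1 in the parent, at 0.03 with an interval from -0.42 to 0.48. AT1G06000, the flavonol 7-O-rhamnosyltransferase, was at 0.34 (SE 0.18, limma adjusted p = 0.284). The interval of UGT78D2 ends below those of DFR, LDOX, UF3GT, AT4G14090 and TT19, and no test of that difference was run. Among 24 tested probe sets with a UGT symbol, a family chosen after values were seen, 2 rose (UGT76B1 and UGT72E2), 1 fell (UGT71C4), and the median was 0.04.

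**Figure D5:**
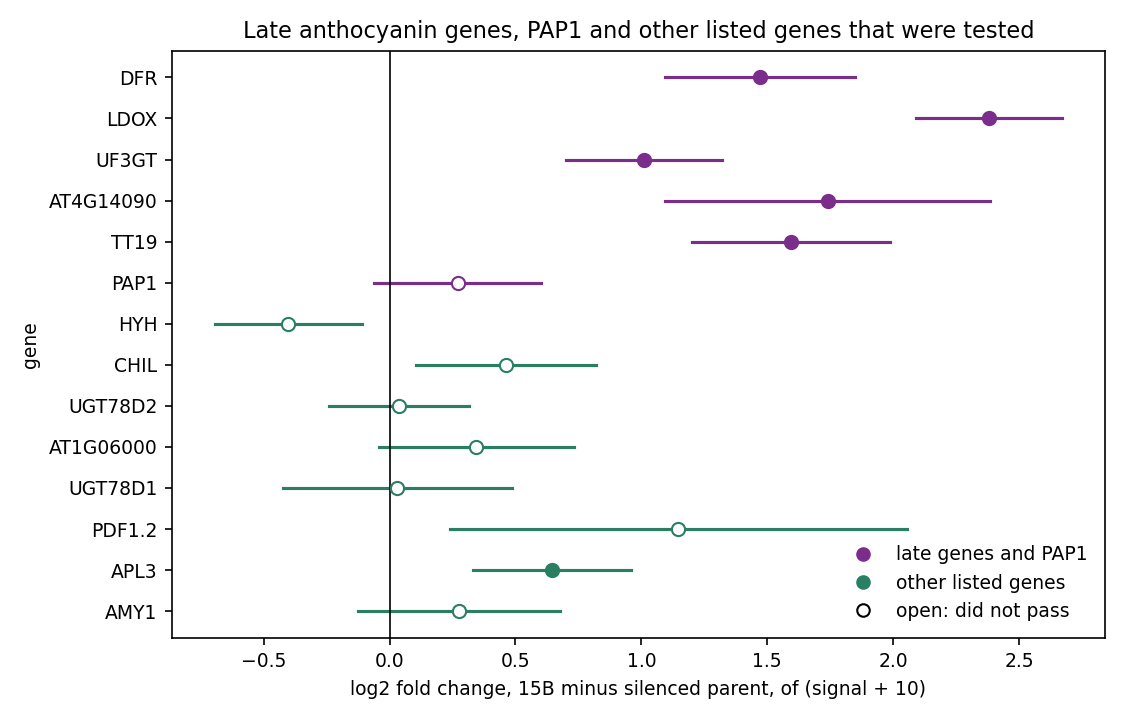
Log2 fold change, 15B minus silenced parent, on the log2(signal + 10) scale with 95% intervals for the 5 tested late genes and PAP1 (purple) and the other listed pathway, light, jasmonate and sugar genes that were tested (green); filled circles passed limma's adjusted threshold. The intervals of the 5 called late genes start at 0.70 or above. Those of the flavonol genes UGT78D1 and AT1G06000 include 0, as does that of UGT78D2, which serves both flavonols and anthocyanidins.

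Genes of the signals that act on anthocyanin synthesis were scarcely covered. HYH, a bZIP factor of light signalling related to HY5, read 37.0, 25.5, 37.5 and 37.1 in 15B, against 51.1, 53.4, 40.1 and 48.7 in the parent. All 15B arrays lay below all parent arrays, but the difference of -0.40 did not pass (SE 0.13, limma adjusted p = 0.0972). APL3, a sugar-inducible large subunit of ADP-glucose pyrophosphorylase, read 60, 53.1, 46.0 and 49.8 in 15B, against 31.9, 27.2, 22.2 and 39.1 in the parent. It rose by 0.65 (SE 0.14, limma adjusted p = 0.0187). Without replicate 1 or 2 of 15B or replicate 2 or 3 of the parent the difference was 0.55 to 0.64 and the limma adjusted p 0.0531 to 0.0583, just past the threshold. With the actin ratio as a covariate it was 0.48 (limma adjusted p = 0.123). TRY, a MYB-like repressor, was too dim to be tested, at 22.9 ± 14.0 in 15B and 18.3 ± 10.3 in the parent (SD, n = 4 each). AMY1, an alpha-amylase, was at 0.27 (limma adjusted p = 0.424). PDF1.2, a jasmonate-responsive defensin, was at 1.15 (SE 0.42, limma adjusted p = 0.127). The MYB, bHLH and WD40 partners and relatives of PAP1, the general phenylpropanoid genes, CHS itself and SAHH1 (HOG1) were not analysed here.

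Tissue makeup could be checked on few markers. LHCB4.1, a light-harvesting protein of green tissue, averaged 4068 ± 280.3 in 15B and 4265 ± 464.5 in the parent (SD, n = 4 each). The root hair expansins EXPA7 and EXPA18 averaged 39.2 and 49.2 in 15B, against 42.6 and 45.7 in the parent. Of the 9 leaf and 8 root loci listed, 1 and 2 were tested, and these 3 had log2 fold changes between -0.09 and 0.08 without a call (limma, 0 at an unadjusted p under 0.05). The seed marker AT3G15670 averaged 4.42 in 15B and 5.05 in the parent. BAN, anthocyanidin reductase, which makes proanthocyanidins in the seed coat, averaged 2.12 in 15B and 2.65 in the parent, both far under the filter.

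Genes whose arrays deviated most like these were sought among 7454 tested probe sets naming 1 gene, by r over the 8 deviations. Closest to the mean standardised deviation of the 7 genes were MAC3A (r = 0.990), AT1G75560 (0.985), AT3G10300 (0.984), SPY (0.975), AT3G09570 (0.970) and AT3G45630 (0.962). None of these 6 was called between the lines by limma, with log2 fold changes from -0.15 to 0.20, and 39 of the 7454 had r of at least 0.9. Closest to PAP1 were AT1G63720 (0.990), ATLIG4 (0.969) and AT1G59910 (0.960), at 0.35, -0.15 and -0.25 without a call. All genes were read on the same 8 arrays, which differ in background and actin ratio, so this likeness is a description of these arrays.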

How the data were processed

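Signal was measured on 8 ATH1 arrays (4 of 15B, 4 of the silenced parent) from biotin-labelled cRNA, per the labels' protocols. Each probe set has 1 deposited intensity per array, on a linear scale, with the same 2% trimmed mean on all arrays. The summarising software is not given in the sources used here. The 64 control probe sets were left out, values were taken as log2(value + 10) with no further scaling, and 13822 of 22746 probe sets with a mean of at least 30 were tested. limma 3.58.1 in R 4.3.3 (lmFit, eBayes with trend) was used, two-sided, after a test on simulated data. Array number limits the precision.

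Names came from the platform annotation of 2016 through Entrez numbers to RefSeq (TAIR10.1), with 13513 probe sets naming 1 gene, 503 several and 8730 none. Of the 7 genes 4 were named there. For LDOX, TT19 and PAP1 the pairing of probe set and gene came with the definition of the set and was not checked here. Per the labels, samples are biological replicates. Where 2 arrays were left out of a correlation, line means were taken anew. No 2 arrays shared over 0.969% of values.

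The 7 genes, the lists and the tests were chosen with earlier results of these data known. From each list up to 4 called genes are named, or up to 2 with the smallest p, and for likeness the 6 closest to the set and 3 closest to PAP1. UGT78D1 and AMY1, named beyond that rule, and the UGT family were chosen after seeing values. The alternatives were pseudocounts of 1 and 30, quantile normalization, centring on medians, a filter at 60 or none, other variance models, array weights, a threshold of 0.01, each array left out, the replicate number as a block and, added after seeing the data, the actin ratio as a covariate, the differences from PAP1, pairs among the 5 called genes and, for 5MAT, no filter with each array left out.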

Additional observations from a re-analysis of the deposited data

Results flagged for a closer look

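Of 48 sets of 4 values, 1 set a line for each gene and array measure, 6 held an array far from the other 3, where chance alone gives about 1 in 20. AT4G14090 was at 159.0 on replicate 1 of 15B, against 64.7 to 72.9 on the other 15B arrays. PAP1 was at 39.6 on replicate 4 of the silenced parent, against 23.8 to 26.1 on the others, and the same array had a scanner background of 197.8 and a noise of 13.5. HYH was at 25.5 on replicate 2 of 15B, against 37.0 to 37.5, and that array had 1353 outlier cells, against 403 to 505.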

How the results depend on the processing

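All 5 calls held in every alternative that tested the gene. Log2 fold changes ranged from 1.18 to 1.62 for DFR, 1.99 to 2.63 for LDOX, 0.75 to 1.2 for UF3GT, 1.24 to 2.21 for AT4G14090 and 1.19 to 1.90 for TT19, and PAP1 passed in 0 of 19 (0.16 to 0.39, limma adjusted p from 0.119 to 0.693). The filter at 60 tested fewer genes and gave 3 calls among the 7 and 0 among other listed genes. With the actin ratio as covariate 513 probe sets changed (225 lower) and 0 other listed genes, and at 0.01 these were 392 (231 higher, 161 lower) and 0. Leaving out each array gave 523 to 993 changed (291 to 452 higher, 232 to 541 lower), 5 of the 7 each time and 0 to 2 other listed genes. The lowest total was without replicate 3 of the parent, and without replicate 2 of 15B it was 588. The lower calls numbered 232 to 318 without replicate 2 or 3 of the parent or replicate 2, 3 or 4 of 15B. Leaving out 1 array, the median r of the 21 pairs was 0.402 to 0.632 and that of PAP1 -0.524 to 0.551, negative without parent replicate 4 alone. The median r was 0.737 among the 5 called genes alone, 0.389 over the 21 pairs after quantile normalization, and 0.150 over them without the 2 farthest arrays of each pair. The cause was not tested. A replicate block in the fit gave 1078 changed probe sets, 5 of the 7 among them. Across tested probe sets, the deviations from the line mean of same-numbered arrays correlated at 0.25, -0.01, 0.05 and 0.05, so the numbers are not taken as pairs. Dim signal limits 5MAT and PAP1.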
